A study of Mus musculus with 36 samples.

Results

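The 45 genes described here encode the lysosomal proton pump, the hydrolases and soluble helpers of the lysosome, its membrane proteins, and the transcription factor Tfeb. They were chosen by name, with earlier results of these data known. They are 16 subunits or accessory proteins of the vacuolar ATPase, 20 hydrolases and soluble helpers, 8 membrane proteins and Tfeb. Each was represented by the probe set with the highest mean over all arrays. All 45 were found among the 19938 genes with a named probe set, and all 45 passed the filter on dim genes that left 12244 genes for testing. Only 4 members (Atp6v0a2, Atp6v1f, Atp6v1g1 and Arsb) had 2 probe sets.

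Expression was measured on 36 Affymetrix mouse gene arrays of sorted C57BL/6 cells that carried both CD45.1 and CD45.2, in 9 groups of 4 biological replicates. The starting cells were monocytes from the bone marrow of adult mice aged 6 to 12 weeks (BM monocytes), monocytes from E15.5 fetal liver (FL monocytes), macrophages from E12.5 yolk sac (YS macrophages), and alveolar macrophages washed from the lungs of adults aged 6 to 12 weeks (adult AM). Cells of each population were given through the nose to newborn Csf2rb-/- mice. Lavage 6 weeks after transfer yielded the cells that had arisen from them, called AM-derived, BM-derived, FL-derived or YS-derived macrophages after the cells given. Alveolar macrophages of 6-week-old wild-type mice, matched in age to the recipients, were the control (6-week AM). The recipients lack the beta chain of the GM-CSF receptor in every cell, while the transferred cells are wild type, so the derived groups are wild-type cells in a mutant lung and the 6-week AM are wild-type cells in a wild-type lung. The labels do not say whether a replicate was 1 animal or a pool, so the p-values measure the spread between these samples.

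Lysosomes break down material taken up from outside or delivered by autophagy. The vacuolar ATPase consists of a V1 sector that hydrolyses ATP in the cytosol and a V0 sector that carries protons across the membrane, and the acid it makes is needed by the hydrolases, while membrane proteins such as Lamp1, Npc1 and Mcoln1 hold the compartment together and export lipids and ions. Alveolar macrophages are known for the uptake and breakdown of pulmonary surfactant, a lipid-rich material. Tfeb is known to bind an E-box with the core CACGTG in promoters of lysosomal genes.

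The promoters of the members were searched for that E-box. RefSeq sequences of assembly GRCm38.p6 were held for 37 of the 45 members. The 250 bases before the transcription start contained CACGTG, which reads the same on both strands, in 9 of 37 members (24.3%) against 6.86% of 27025 genes. The longer form TCACGTG, counted on either strand and always overlapping the shorter one, was found in the same 9 members (24.3%) against 3.58% of genes. The genes were Arsa, Atp6v0b, Atp6v1a, Gaa, Gla, Glb1, Lamp1, Mcoln1 and Naglu. A match describes letters and is not a measured binding site. The 5 stretches printed here were chosen because Lamp1 held the most matches (4) and had the flattest profile of the membrane proteins, Mcoln1, Naglu and Gaa rose from monocytes of both origins, and Glb1 fell in cells of yolk sac origin. Capitals mark CACGTG, and each is written 5′ to 3′ along the gene.
Lamp1: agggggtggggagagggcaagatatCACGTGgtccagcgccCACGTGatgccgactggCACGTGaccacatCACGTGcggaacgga
Mcoln1: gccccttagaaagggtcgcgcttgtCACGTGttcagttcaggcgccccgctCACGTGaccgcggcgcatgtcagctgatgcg
Naglu: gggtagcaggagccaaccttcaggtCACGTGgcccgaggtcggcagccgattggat
Gaa: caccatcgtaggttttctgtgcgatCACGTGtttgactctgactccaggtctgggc
Glb1: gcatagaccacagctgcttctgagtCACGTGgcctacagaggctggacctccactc
They lie at chr8:13159075-13159160 (plus strand) for Lamp1, chr8:3500423-3500504 (plus strand) for Mcoln1, chr11:101069996-101070051 (plus strand) for Naglu, chr11:119267798-119267853 (plus strand) for Gaa and chr9:114401005-114401060 (plus strand) for Glb1, all before the start of the gene. The 4 matches of Lamp1 begin between 61 and 15 bases before the start, and the 2 of Mcoln1 begin 71 and 45 bases before it.

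In each of the 6 lavage groups, 8 of 8 measured alveolar macrophage markers were above the table median (4.62, log2 scale). So were 6 of 8 in BM monocytes and 5 of 8 in FL monocytes and in YS macrophages. List means were 10.54 to 10.98 per array in the lavage groups against 4.73 to 5.98 in the starting monocytes and yolk sac cells. Both monocyte groups held 5 of 5 measured monocyte markers above the table median, against 2 of 5 in every other group. YS macrophages held 9 of 9 markers of fetal and tissue macrophages above it, against 3 to 5 of 9 in the other groups. Both monocyte groups also held 7 of 10 markers of neutrophils and their precursors above the median, with list means of 6.34 to 8.01 (BM) and 7.24 to 8.13 (FL) against 3.84 to 4.29 in alveolar macrophage arrays. Ly6g (3.10 and 3.19) and Retnlg (3.79 and 3.52) were under the median in BM and FL monocytes. Cxcr2 was under it in BM monocytes (4.44) and Ltf in FL monocytes (3.93). In YS macrophages, 3 of 5 measured erythroid markers were above the median, with list means of 6.44 to 7.18, and Klf1 and Alas2 were under it. The 7 lung epithelial markers had list means of 4.86 to 5.87 per array in the lavage groups against 4.40 to 4.77 in the monocytes and yolk sac cells. Group means of Sftpc, Scgb1a1 and Epcam were higher in every lavage group, and those of Sftpa1, Sftpb, Krt18 and Ager were not. Whether other cells were present, and their part in the values below, was not tested. In RNA of sorted populations, fewer cells with a transcript and less of it per cell cannot be told apart.

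Some arrays read low for the members. Replicate 4 of the AM-derived macrophages held the lowest value of its group in 32 of 45 members, against 31.2% of all genes tested, and the median member lay 0.22 under the group's median on the log2 scale. For replicate 4 of adult AM this was 28 of 45 members against 36.2% of genes, with a median deviation of -0.13, and for replicate 4 of BM-derived macrophages 28 of 45 against 30.2%, with -0.10. In adult AM replicate 4 the largest deviation was that of Npc1, at -0.92, and in AM-derived replicate 4 that of Glb1, at -1.05. Adult AM replicate 4 also had the highest mean of 7 lung epithelial markers, 5.87 against 5.20 to 5.48 in the other adult AM arrays, whereas AM-derived replicate 4 had 5.23 against 5.24 to 5.59. Their part in the low values was not tested. Without BM-derived replicate 4, the counts of called members in the pairwise comparisons of BM-derived macrophages were those given below. Without replicate 4 of both adult AM and AM-derived macrophages, the counts of AM-derived against adult AM and of adult AM against 6-week AM were also those given below, and those of AM-derived against 6-week AM changed.

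**Figure D1:**
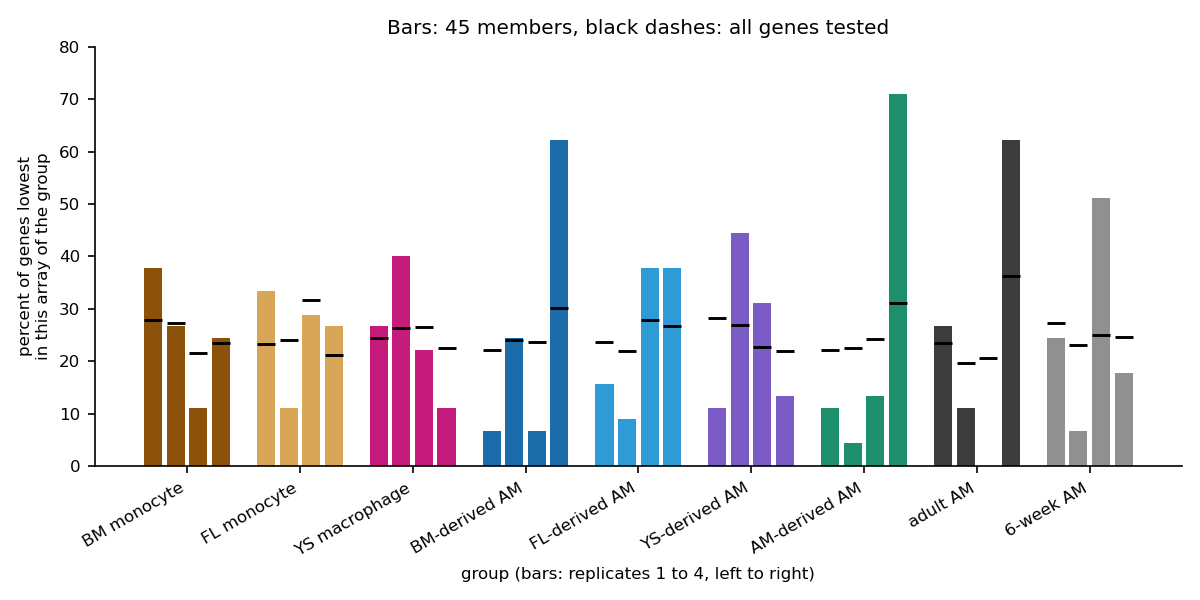
Percent of genes for which an array held the lowest value of its group of 4 (vertical axis, percent), by group and replicate. Bars stand for the 45 members and black dashes for all genes tested; the bars of replicate 4 of BM-derived, AM-derived and adult AM stand highest (28, 32 and 28 of 45 members), while adult AM replicate 3 is lowest in 0 of 45.

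Over transfer, most lysosomal members rose from BM monocytes, FL monocytes and YS macrophages, and 0 of 45 were called from adult AM. From BM monocytes to BM-derived macrophages 30 of 45 members rose and 2 fell, against 20.3% of all genes called higher and 16.1% called lower (limma, Benjamini-Hochberg adjusted p under 0.05). From FL monocytes to FL-derived macrophages 34 rose and 1 fell, against 20.4% and 18.0%. From YS macrophages to YS-derived macrophages 31 rose and 4 fell, against 19.6% and 23.2%. The median change of the 45 members was 0.65, 0.66 and 0.64 on the log2 scale (0.65 in place of the second with dim means set to the table median), and that of all genes -0.02, -0.02 and -0.0021. These 3 comparisons share no arrays, and 23 of 45 members rose in all 3, against 9.59% of the 12244 genes. The 5 members that rose in none were Atp6v0a2, Glb1, Smpd1, Arsb and Galc. For adult AM, which were alveolar macrophages before they were given, 0 members were called higher and 0 lower after transfer (limma; 3 and 3 at an unadjusted p under 0.05), against 0.400% and 0.302% of genes.

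**Figure D2:**
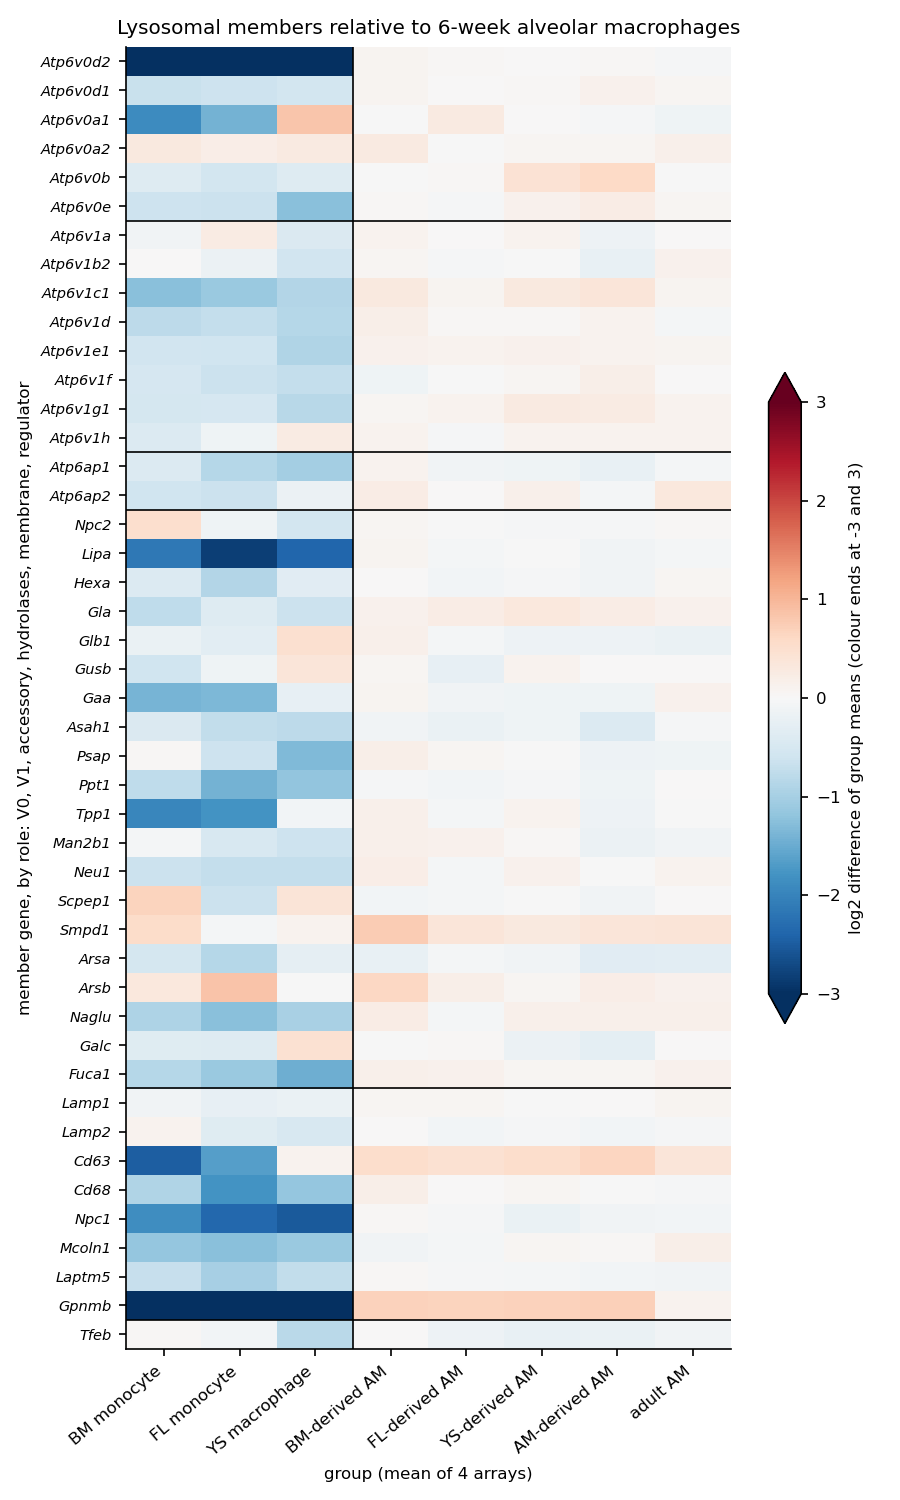
Group mean of each of the 45 members (rows, by role) minus its mean in 6-week AM, as a colour on the log2 scale that ends at -3 and 3, for the other 8 groups (columns, 4 arrays each). The 3 groups of starting cells to the left of the vertical line are mostly blue, whereas the 5 alveolar macrophage groups to its right stay within 0.76 of the 6-week AM; Atp6v0a1, Scpep1, Smpd1, Arsb, Glb1 and Galc are among the rows that are red in a starting population.

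Most members of the proton pump rose. Of the 16, 12 rose and 0 fell from BM monocytes (limma; 0 lower at an unadjusted p under 0.05 as well), 12 rose and 0 fell from FL monocytes (again 0 lower unadjusted), and 13 rose and 1 fell from YS macrophages. Of all genes, 20.3%, 20.4% and 19.6% were called higher and 16.1%, 18.0% and 23.2% lower. The median changes of the 16 were 0.63, 0.64 and 0.78.

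The 2 isoforms of the V0 d subunit, which couples the rotor to the membrane sector, were measured by separate probe sets. Atp6v0d2, the isoform known from osteoclasts and some macrophages, read 4.36, 3.59, 3.83 and 4.31 in BM monocytes, 3.80, 4.31, 4.29 and 3.80 in FL monocytes and 6.15, 5.87, 5.86 and 5.59 in YS macrophages on the log2 scale. After transfer, Atp6v0d2 read 12.38, 12.39, 12.33 and 12.31 in BM-derived, 12.27, 12.32, 12.34 and 12.33 in FL-derived, 12.30, 12.31, 12.23 and 12.33 in YS-derived and 12.39, 12.31, 12.34 and 12.15 in AM-derived macrophages. It read 12.33, 12.27, 12.21 and 12.18 in adult AM and 12.36, 12.25, 12.26 and 12.23 in 6-week AM. All 8 monocyte arrays lay below the table median, the yolk sac arrays stood between, and the 24 alveolar macrophage arrays filled a band of 12.15 to 12.39. Measured against the table median, the rise was at least 212-fold from BM monocytes (adjusted p = 4.18e-31) and at least 207-fold from FL monocytes (adjusted p = 4.95e-31), and it was 86.0-fold from YS macrophages (log2 change 6.43 ± 0.13 SE, adjusted p = 1.84e-28). This was the widest range of group means among the 45 members, and the narrowest range among alveolar macrophage groups within the pump, 12.25 to 12.35.

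Atp6v0d1, the ubiquitous d isoform, read 8.30, 8.69, 8.54 and 8.53 in BM monocytes, 8.56, 8.59, 8.32 and 8.73 in FL monocytes and 8.59, 8.50, 8.62 and 8.85 in YS macrophages. After transfer, Atp6v0d1 read 9.43, 9.05, 9.28 and 9.33 in BM-derived, 9.18, 9.34, 9.12 and 9.15 in FL-derived, 9.26, 9.31, 9.15 and 9.14 in YS-derived and 9.17, 9.57, 9.23 and 9.28 in AM-derived macrophages. It read 9.16, 9.17, 9.40 and 9.20 in adult AM and 9.0, 9.32, 9.12 and 9.28 in 6-week AM. No alveolar macrophage array reached down to a starting array, and the rises were 0.76 ± 0.11, 0.65 ± 0.11 and 0.57 ± 0.11 SE (adjusted p = 1.22e-06, 1.52e-05 and 7.72e-05). Levels of different probe sets are not comparable, so the arrays do not tell which isoform is the more abundant.

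The a subunit of V0, whose isoforms direct the pump to different membranes, includes the member with the widest range among the 3 starting populations. Atp6v0a1 read 6.30, 6.50, 6.67 and 6.30 in BM monocytes, 7.09, 6.87, 6.68 and 7.05 in FL monocytes and 9.21, 9.05, 9.12 and 9.23 in YS macrophages. After transfer, Atp6v0a1 read 8.32, 8.43, 8.40 and 8.12 in BM-derived, 8.41, 8.72, 8.65 and 8.60 in FL-derived, 8.38, 8.22, 8.21 and 8.58 in YS-derived and 8.48, 8.47, 8.35 and 7.90 in AM-derived macrophages. It read 8.47, 8.53, 8.12 and 7.66 in adult AM and 8.21, 8.34, 8.46 and 8.31 in 6-week AM. Yolk sac arrays were thus the highest of all 36 and monocyte arrays the lowest. Atp6v0a1 rose by 1.88 ± 0.15 SE from BM monocytes and 1.67 ± 0.15 SE from FL monocytes, and it fell from YS macrophages, with a log2 change of -0.80 ± 0.15 SE (adjusted p = 1.45e-12, 2.23e-11 and 3.33e-05). The difference between these changes was itself called: -2.68 ± 0.21 SE for yolk sac against bone marrow origin (adjusted p = 2.45e-12) and -2.48 ± 0.21 SE against fetal liver origin (adjusted p = 1.84e-11). Atp6v0a2, another a isoform, had the narrowest range of the pump, with group means from 7.0 to 7.32. Its arrays read 7.61, 7.29, 7.33 and 7.04 in BM monocytes, 7.59, 7.34, 6.74 and 7.17 in FL monocytes and 7.17, 7.28, 7.19 and 7.52 in YS macrophages. After transfer, Atp6v0a2 read 7.59, 7.46, 7.13 and 6.97 in BM-derived, 6.87, 7.14, 6.84 and 7.16 in FL-derived, 7.14, 7.07, 6.75 and 7.38 in YS-derived and 7.33, 7.19, 7.05 and 6.79 in AM-derived macrophages. It read 7.18, 7.0, 7.26 and 7.24 in adult AM and 7.30, 7.19, 6.73 and 6.87 in 6-week AM. The groups overlap throughout, and the changes over transfer of -0.03 (95% interval -0.37 to 0.31), -0.21 (-0.55 to 0.13) and -0.21 (-0.55 to 0.14) did not pass the test.

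Atp6v0e, a small membrane subunit, read 11.23, 11.18, 11.31 and 11.23 in BM monocytes, 11.04, 11.40, 11.25 and 11.16 in FL monocytes and 10.38, 10.61, 10.97 and 10.51 in YS macrophages. After transfer, Atp6v0e read 11.90, 11.78, 11.93 and 12.00 in BM-derived, 11.86, 11.82, 11.84 and 11.79 in FL-derived, 12.22, 11.88, 12.02 and 11.81 in YS-derived and 11.97, 12.07, 12.15 and 12.13 in AM-derived macrophages. It read 11.94, 11.86, 11.96 and 11.95 in adult AM and 11.82, 11.92, 11.82 and 11.89 in 6-week AM. Yolk sac arrays were the lowest, and the rise of 1.36 ± 0.10 SE from them exceeded that of 0.66 ± 0.10 SE from BM monocytes, with a difference of 0.70 ± 0.15 SE (adjusted p = 3.03e-04). Atp6v0b, part of the proteolipid ring, changed by 0.37 from BM monocytes, which did not pass, and rose by 0.59 and 0.80 from the other two, the first not called without FL monocyte replicate 1 or FL-derived replicate 2.

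In the V1 sector, 6 of 8 members rose from BM monocytes, 5 of 8 from FL monocytes and 7 of 8 from YS macrophages, and 0 of 8 fell in any of the 3 (limma; 0 at an unadjusted p under 0.05 as well). The shares of all genes were 20.3%, 20.4% and 19.6% higher and 16.1%, 18.0% and 23.2% lower. Atp6v1c1, which bridges the sectors and is known to control their assembly, had the widest range of the sector. Its arrays read 8.27, 8.35, 8.46 and 8.51 in BM monocytes, 8.66, 8.75, 8.41 and 8.31 in FL monocytes and 8.64, 8.80, 8.80 and 8.79 in YS macrophages. After transfer, Atp6v1c1 read 10.10, 9.78, 9.96 and 9.93 in BM-derived, 9.88, 9.87, 9.69 and 9.43 in FL-derived, 10.01, 9.79, 10.04 and 9.87 in YS-derived and 10.04, 10.00, 9.88 and 10.07 in AM-derived macrophages. It read 9.63, 9.75, 9.79 and 9.69 in adult AM and 9.66, 9.73, 9.60 and 9.60 in 6-week AM. Starting and derived arrays did not overlap, and the rises were 1.54 ± 0.11, 1.19 ± 0.11 and 1.17 ± 0.11 SE (adjusted p = 3.61e-14, 2.36e-11 and 2.52e-11). Atp6v1d, Atp6v1e1, Atp6v1f and Atp6v1g1, which form the central shaft, the stators and their neighbours, rose in all 3, by 0.38 (Atp6v1f from BM monocytes) to 1.09 (Atp6v1g1 from YS macrophages). The catalytic and regulatory subunits each passed in 1 of the 3 origins. Atp6v1a, which binds and hydrolyses ATP, changed by 0.20 and -0.23 from the monocytes without passing and rose by 0.52 from YS macrophages, and its partner Atp6v1b2 changed by 0.06 and 0.13 and rose by 0.55. The regulatory subunit Atp6v1h rose by 0.52 from BM monocytes, and its changes of 0.08 and -0.13 from FL monocytes and YS macrophages did not pass. The accessory proteins Atp6ap1 and Atp6ap2, needed for assembly of the pump, rose in all 3, by 0.50, 0.75 and 0.88 and by 0.82, 0.67 and 0.31. The rise of Atp6ap2 from YS macrophages (adjusted p = 0.047) was lost without any 1 of the 8 arrays compared, without the filter, with centred array medians and with the replicate block. It is counted among the 13 pump members that rose from YS macrophages and the 23 members that rose in all 3.

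**Figure D3:**
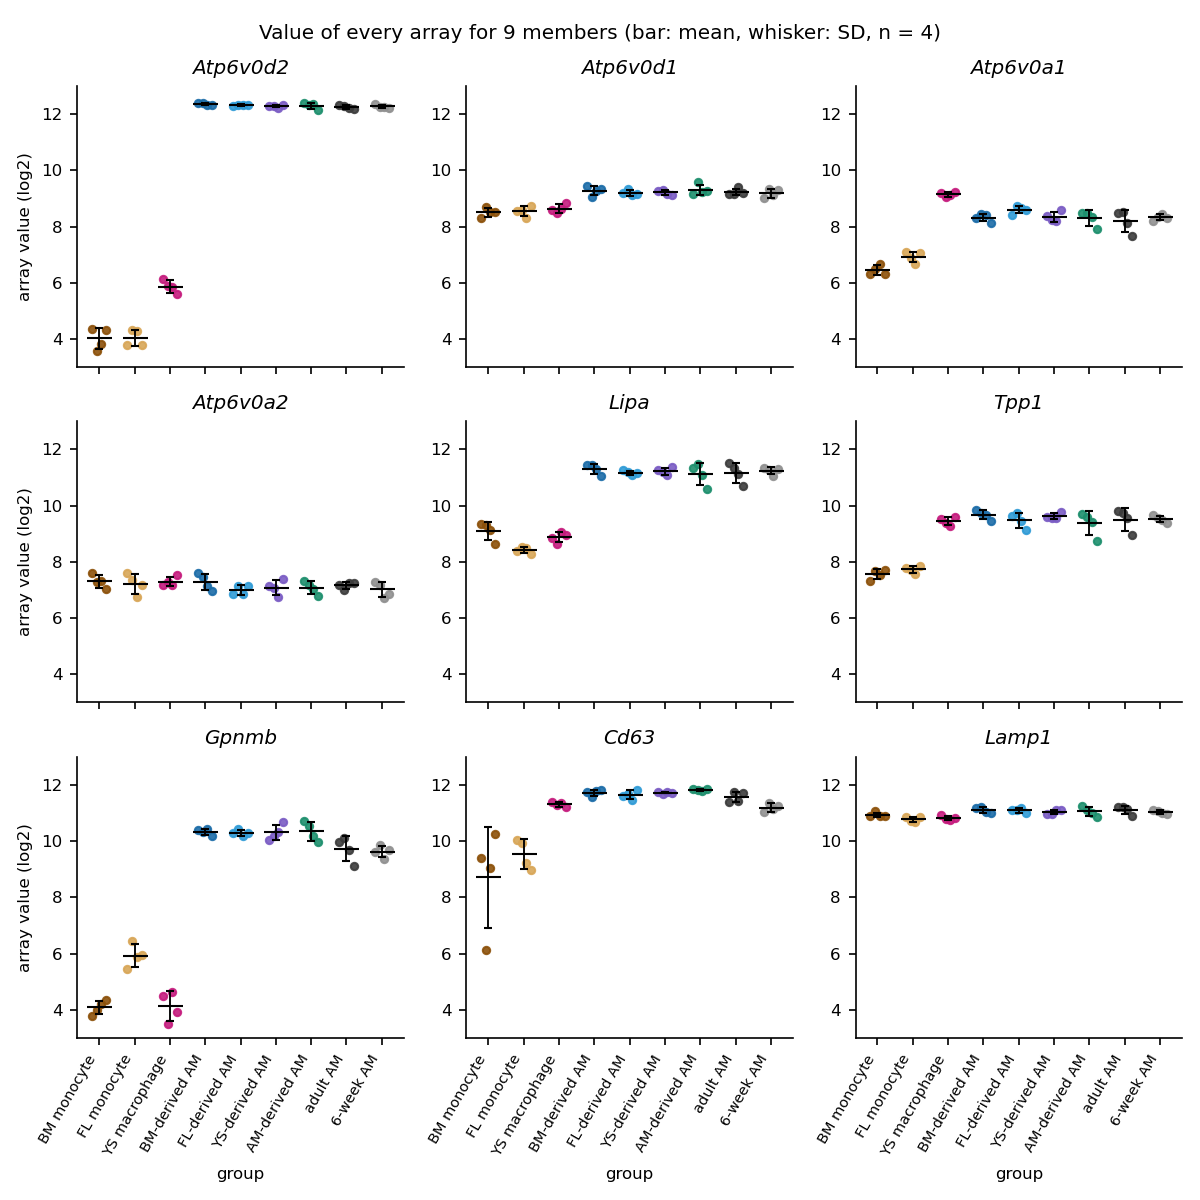
Value of every array on the log2 scale (vertical axis, 3 to 13 in each panel) for 9 members in the 9 groups (horizontal axis); points are arrays, the bar is the mean and the whisker the SD (n = 4). Atp6v0d2 and Gpnmb step from the starting cells to the alveolar macrophages, Atp6v0a1, Tpp1 and Cd63 are already high in YS macrophages, Atp6v0a2 and Lamp1 stay in a narrow band, and 1 BM monocyte array lies at 6.14 for Cd63.

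Of the 20 hydrolases and soluble helpers, 12 rose and 2 fell from BM monocytes, 14 rose and 1 fell from FL monocytes, and 11 rose and 3 fell from YS macrophages, with median changes of 0.39, 0.63 (0.63 with Arsa at its bound) and 0.40. Of all genes, 20.3%, 20.4% and 19.6% rose and 16.1%, 18.0% and 23.2% fell. Lipa, the acid lipase that hydrolyses cholesteryl esters and triglycerides, moved most. It read 9.35, 9.31, 9.13 and 8.63 in BM monocytes, 8.40, 8.52, 8.50 and 8.27 in FL monocytes and 8.84, 8.64, 9.05 and 8.96 in YS macrophages. After transfer, Lipa read 11.44, 11.46, 11.30 and 11.07 in BM-derived, 11.27, 11.20, 11.09 and 11.15 in FL-derived, 11.27, 11.19, 11.09 and 11.38 in YS-derived and 11.33, 11.48, 11.10 and 10.61 in AM-derived macrophages. It read 11.52, 11.35, 11.14 and 10.69 in adult AM and 11.33, 11.29, 11.06 and 11.30 in 6-week AM. Every alveolar macrophage array lay above every starting array, and the 2 lowest of the former were replicate 4 of AM-derived and of adult AM. The rises were 4.64-fold, 6.76-fold and 5.13-fold from BM monocytes, FL monocytes and YS macrophages (log2 changes 2.21 ± 0.16, 2.76 ± 0.16 and 2.36 ± 0.16 SE, adjusted p = 3.12e-13, 1.09e-15 and 4.25e-14).

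Other lipid hydrolases and their helpers were mixed. Ppt1, which removes fatty acids from proteins, rose by 0.73, 1.34 and 1.16 from BM monocytes, FL monocytes and YS macrophages. Gla and Hexa, which trim sugars from glycolipids, rose by 0.89, 0.60 and 0.95 and by 0.43, 0.78 and 0.29. The last call of Hexa was lost without YS macrophage replicate 3 or YS-derived replicate 3 or 4. Psap, the precursor of the saposins that present lipids to hydrolases, changed by 0.12 from BM monocytes without passing and rose by 0.67 and 1.33. Galc, which cleaves galactosylceramide, fell from YS macrophages with a change of -0.63, and its changes of 0.36 and 0.40 from the monocytes did not pass. The acid sphingomyelinase Smpd1 changed by 0.21, 0.43 and 0.20, none of which passed.

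Asah1, the acid ceramidase, had the narrowest range of the hydrolases. It read 9.48, 9.55, 9.23 and 9.34 in BM monocytes, 9.02, 9.02, 9.11 and 9.24 in FL monocytes and 8.99, 9.13, 9.05 and 9.03 in YS macrophages. After transfer, Asah1 read 9.80, 9.78, 9.69 and 9.58 in BM-derived, 9.75, 9.53, 9.58 and 9.69 in FL-derived, 9.81, 9.68, 9.58 and 9.69 in YS-derived and 9.56, 9.58, 9.45 and 9.11 in AM-derived macrophages. It read 9.70, 9.85, 9.86 and 9.76 in adult AM and 9.88, 9.69, 9.90 and 9.84 in 6-week AM. The starting arrays all lay at 9.55 or below, and AM-derived replicates 3 and 4 and FL-derived replicate 2 lay below the highest of them. Asah1 rose by 0.31, 0.54 and 0.64 over transfer, the first not called without BM monocyte replicate 3. Npc2, the soluble protein that hands cholesterol to Npc1, fell from BM monocytes (-0.46 ± 0.09 SE), did not pass from FL monocytes (0.12 ± 0.09 SE) and rose from YS macrophages (0.51 ± 0.09 SE, adjusted p = 9.21e-05, 0.308 and 1.70e-05), so that the starting means of 11.95, 11.31 and 10.89 became 11.49, 11.43 and 11.41.

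Among the proteases, Tpp1, a tripeptidyl peptidase, read 7.34, 7.69, 7.53 and 7.70 in BM monocytes, 7.80, 7.71, 7.58 and 7.84 in FL monocytes and 9.53, 9.38, 9.28 and 9.58 in YS macrophages. After transfer, Tpp1 read 9.86, 9.74, 9.66 and 9.46 in BM-derived, 9.62, 9.73, 9.44 and 9.12 in FL-derived, 9.60, 9.56, 9.57 and 9.78 in YS-derived and 9.72, 9.60, 9.40 and 8.76 in AM-derived macrophages. It read 9.82, 9.73, 9.55 and 8.94 in adult AM and 9.66, 9.57, 9.50 and 9.39 in 6-week AM. The yolk sac arrays lay inside the range of the alveolar macrophages, 8.76 to 9.86, whereas no monocyte array reached it. Tpp1 rose 4.34-fold from BM and 3.35-fold from FL monocytes (log2 changes 2.12 ± 0.17 and 1.75 ± 0.17 SE), and the change of 0.18 ± 0.17 SE from YS macrophages (95% interval -0.16 to 0.53) did not pass. The change from yolk sac cells differed from that from BM monocytes by -1.93 ± 0.24 SE (adjusted p = 6.71e-08). Scpep1, a serine carboxypeptidase, read 9.10, 9.37, 9.26 and 9.0 in BM monocytes, 7.71, 8.05, 7.78 and 7.91 in FL monocytes and 8.85, 8.86, 8.90 and 8.98 in YS macrophages. After transfer, Scpep1 read 8.69, 8.58, 8.46 and 7.96 in BM-derived, 8.28, 8.76, 8.30 and 8.42 in FL-derived, 8.81, 8.20, 8.42 and 8.58 in YS-derived and 8.55, 8.59, 8.48 and 7.99 in AM-derived macrophages. It read 8.67, 8.43, 8.57 and 8.39 in adult AM and 8.66, 8.45, 8.13 and 8.78 in 6-week AM. BM monocyte arrays were the highest, and FL monocytes had the lowest group mean, 7.86. Replicate 4 of BM-derived and of AM-derived macrophages lay below FL monocyte replicate 2. Scpep1 fell from BM monocytes (-0.76 ± 0.16 SE) and YS macrophages (-0.40 ± 0.16 SE) and rose from FL monocytes (0.58 ± 0.16 SE). The call from YS macrophages was lost without any 1 of their 4 arrays, without YS-derived replicate 2 or 3, and without the filter. The difference between fetal liver and bone marrow origin was 1.34 ± 0.22 SE (adjusted p = 8.28e-05).

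Among the glycosidases and sulfatases, Fuca1, the lysosomal fucosidase, rose in all 3 origins. It read 9.49, 9.45, 9.87 and 9.57 in BM monocytes, 9.36, 9.38, 9.11 and 9.42 in FL monocytes and 8.80, 9.17, 8.92 and 8.99 in YS macrophages. After transfer, Fuca1 read 10.52, 10.68, 10.64 and 10.52 in BM-derived, 10.51, 10.50, 10.54 and 10.71 in FL-derived, 10.43, 10.48, 10.52 and 10.57 in YS-derived and 10.54, 10.50, 10.54 and 10.41 in AM-derived macrophages. It read 10.52, 10.54, 10.73 and 10.48 in adult AM and 10.66, 10.41, 10.33 and 10.37 in 6-week AM. All alveolar macrophage arrays, from 10.33 to 10.73, lay above all starting arrays, with rises of 1.00 ± 0.10, 1.25 ± 0.10 and 1.53 ± 0.10 SE (adjusted p = 6.70e-10, 3.14e-12 and 1.20e-14). Naglu, which degrades heparan sulfate, rose by 1.15, 1.20 and 1.13, and the sialidase Neu1 by 0.86, 0.66 and 0.85, in BM, FL and YS origin.

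Gaa, the acid glucosidase that degrades glycogen, read 5.29, 5.65, 5.97 and 5.29 in BM monocytes, 6.06, 5.59, 5.62 and 5.13 in FL monocytes and 6.84, 6.51, 6.55 and 6.90 in YS macrophages. After transfer, Gaa read 6.89, 6.87, 7.46 and 6.94 in BM-derived, 7.09, 7.30, 6.82 and 6.19 in FL-derived, 6.75, 6.65, 6.71 and 7.13 in YS-derived and 7.35, 7.0, 6.36 and 6.61 in AM-derived macrophages. It read 7.16, 7.52, 7.28 and 6.34 in adult AM and 6.88, 6.92, 6.73 and 7.27 in 6-week AM. The yolk sac arrays lay within the alveolar macrophage range of 6.19 to 7.52 and the monocyte arrays below it. Gaa rose by 1.49 ± 0.24 and 1.25 ± 0.24 SE from the monocytes (adjusted p = 5.13e-06 and 6.61e-05), and the change of 0.11 ± 0.24 SE from YS macrophages (95% interval -0.38 to 0.60) did not pass. The galactosidase Glb1 fell from YS macrophages (-0.65 ± 0.21 SE, adjusted p = 0.0106), and its changes of 0.36 and 0.26 from the monocytes did not pass. The glucuronidase Gusb rose from BM monocytes by 0.65 and did not pass from FL monocytes or YS macrophages (-0.11 and -0.25). Man2b1, a mannosidase, rose by 0.61 and 0.66 from FL monocytes and YS macrophages and changed by 0.21 from BM monocytes without passing. Its call from FL monocytes was lost without FL monocyte replicate 2 or FL-derived replicate 4.

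Of the sulfatases, Arsb, which acts on dermatan sulfate, read 8.46, 8.37, 8.33 and 8.09 in FL monocytes and 7.38, 7.93, 7.50 and 7.69 in FL-derived macrophages and fell by 0.69 on the log2 scale (adjusted p = 0.00525), while its changes of 0.31 and 0.07 in the other origins did not pass. Arsa, which acts on sulfatide and was close to the table median, with group means of 4.46 to 5.32, rose by 0.32 from BM monocytes, and at least 1.56-fold from FL monocytes, whose 4 arrays lay under that median. Its change of 0.15 from YS macrophages did not pass. The call from BM monocytes was lost without BM monocyte replicate 1 or 3 or BM-derived replicate 2 or 3.

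Of the 8 membrane proteins, 6 rose from BM monocytes, 8 from FL monocytes and 6 from YS macrophages, and 0 fell in any of the 3 (limma; 0 lower at an unadjusted p under 0.05 as well). Among all genes the shares were 20.3%, 20.4% and 19.6% higher and 16.1%, 18.0% and 23.2% lower. The median changes of the 8 membrane proteins were 1.06, 1.49 and 0.93. Gpnmb, a glycoprotein of lysosomes and melanosomes, moved most. It read 3.79, 3.99, 4.21 and 4.33 in BM monocytes, 5.44, 6.44, 5.88 and 5.94 in FL monocytes and 4.50, 3.48, 4.62 and 3.91 in YS macrophages. After transfer, Gpnmb read 10.40, 10.32, 10.42 and 10.17 in BM-derived, 10.30, 10.44, 10.17 and 10.28 in FL-derived, 10.05, 10.19, 10.33 and 10.67 in YS-derived and 10.70, 10.55, 10.19 and 9.95 in AM-derived macrophages. It read 9.96, 10.12, 9.70 and 9.12 in adult AM and 9.62, 9.86, 9.35 and 9.68 in 6-week AM. All BM monocyte and yolk sac arrays lay at 4.62 or below, the level of the table median, the FL monocyte arrays above it, and the alveolar macrophage arrays far above all 3. The rises were at least 52.1-fold from BM monocytes, 20.8-fold from FL monocytes and at least 51.5-fold from YS macrophages (adjusted p = 6.36e-22, 1.30e-17 and 5.38e-22).

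Npc1, the membrane protein that exports cholesterol, read 6.72, 7.72, 7.45 and 6.95 in BM monocytes, 6.32, 6.63, 6.81 and 7.16 in FL monocytes and 6.68, 6.22, 6.63 and 6.72 in YS macrophages. After transfer, Npc1 read 9.04, 9.45, 9.14 and 8.82 in BM-derived, 9.0, 9.08, 8.97 and 9.14 in FL-derived, 8.88, 8.61, 8.73 and 9.25 in YS-derived and 9.25, 9.27, 8.99 and 8.34 in AM-derived macrophages. It read 9.17, 9.42, 9.17 and 8.25 in adult AM and 9.19, 9.03, 8.86 and 9.22 in 6-week AM. Every alveolar macrophage array lay above every starting array, again with replicate 4 of adult AM and of AM-derived macrophages as the lowest. The rises were 3.73-fold, 4.99-fold and 4.95-fold (log2 changes 1.90 ± 0.23, 2.32 ± 0.23 and 2.31 ± 0.23 SE, adjusted p = 1.99e-08, 2.32e-10 and 2.17e-10). Its soluble partner Npc2 rose in 1 of the 3.

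Cd68, the macrophage sialoprotein of late endosomes, read 11.07, 11.54, 11.23 and 11.07 in BM monocytes, 10.21, 10.43, 10.20 and 10.50 in FL monocytes and 10.95, 10.92, 10.85 and 11.14 in YS macrophages. After transfer, Cd68 read 12.35, 12.31, 12.37 and 12.14 in BM-derived, 12.14, 12.25, 11.99 and 12.14 in FL-derived, 12.12, 12.19, 12.05 and 12.40 in YS-derived and 12.29, 12.31, 12.07 and 11.82 in AM-derived macrophages. It read 12.28, 12.21, 12.10 and 11.74 in adult AM and 12.14, 12.15, 12.06 and 12.14 in 6-week AM. FL monocytes were the lowest, and the rise of 1.79 ± 0.12 SE from them exceeded that of 1.06 ± 0.12 SE from BM monocytes by 0.73 ± 0.18 SE (adjusted p = 0.0051). From YS macrophages it rose by 1.22 ± 0.12 SE. The calcium channel Mcoln1 rose by 1.06, 1.19 and 1.17, and Laptm5, a lysosomal protein of blood cells, by 0.72, 0.95 and 0.69.

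Cd63, a tetraspanin of late endosomes and of granules, read 9.41, 6.14, 9.04 and 10.26 in BM monocytes, 10.05, 9.94, 9.21 and 8.98 in FL monocytes and 11.38, 11.28, 11.35 and 11.20 in YS macrophages. After transfer, Cd63 read 11.76, 11.57, 11.77 and 11.80 in BM-derived, 11.62, 11.68, 11.46 and 11.83 in FL-derived, 11.75, 11.69, 11.74 and 11.72 in YS-derived and 11.85, 11.82, 11.79 and 11.86 in AM-derived macrophages. It read 11.40, 11.75, 11.42 and 11.71 in adult AM and 11.02, 11.37, 11.15 and 11.23 in 6-week AM. The BM monocyte arrays were spread over 4.12 log2 units, and the array at 6.14, replicate 2, also had the lowest mean of the neutrophil precursor markers, 6.34 against 7.25 to 8.01 in the other 3. Whether such cells were present, and their part in this value, was not tested. Cd63 rose by 3.01 ± 0.41 SE from BM monocytes, and by 2.16 without replicate 2, and by 2.11 ± 0.41 SE from FL monocytes (adjusted p = 3.09e-07 and 8.77e-05 with all arrays). The change of 0.42 ± 0.41 SE from YS macrophages (95% interval -0.42 to 1.26) did not pass. The SE is shared by all 9 groups and takes in the spread of the BM monocyte arrays. Their SD was 1.79, against 0.08 in YS macrophages and 0.03 in YS-derived macrophages. All YS macrophage arrays lay below all YS-derived arrays.

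Lamp1 and Lamp2, major glycoproteins of the lysosomal membrane, had the narrowest ranges of the membrane proteins. Lamp1 read 10.88, 11.05, 10.90 and 10.89 in BM monocytes, 10.86, 10.73, 10.69 and 10.84 in FL monocytes and 10.94, 10.78, 10.75 and 10.83 in YS macrophages. After transfer, Lamp1 read 11.17, 11.22, 11.03 and 11.01 in BM-derived, 11.11, 11.11, 11.18 and 10.98 in FL-derived, 10.96, 10.95, 11.09 and 11.10 in YS-derived and 11.24, 11.11, 11.02 and 10.86 in AM-derived macrophages. It read 11.22, 11.20, 11.13 and 10.89 in adult AM and 11.12, 11.06, 10.99 and 10.97 in 6-week AM. The groups lie close together, and Lamp1 rose from FL monocytes by 0.31 ± 0.09 SE (adjusted p = 0.00613, not called with quantile normalised genes or with only those 2 groups in the fit), whereas the changes of 0.18 from BM monocytes (95% interval -0.01 to 0.36) and 0.20 from YS macrophages (0.01 to 0.39) did not pass. Lamp2 changed by -0.09 from BM monocytes without passing and rose by 0.28 and 0.45 from FL monocytes and YS macrophages. The Lamp1 promoter was printed for its 4 matches to CACGTG and for this narrow range of group means, 10.78 to 11.11. That pairing was a choice and not a result.

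**Figure D4:**
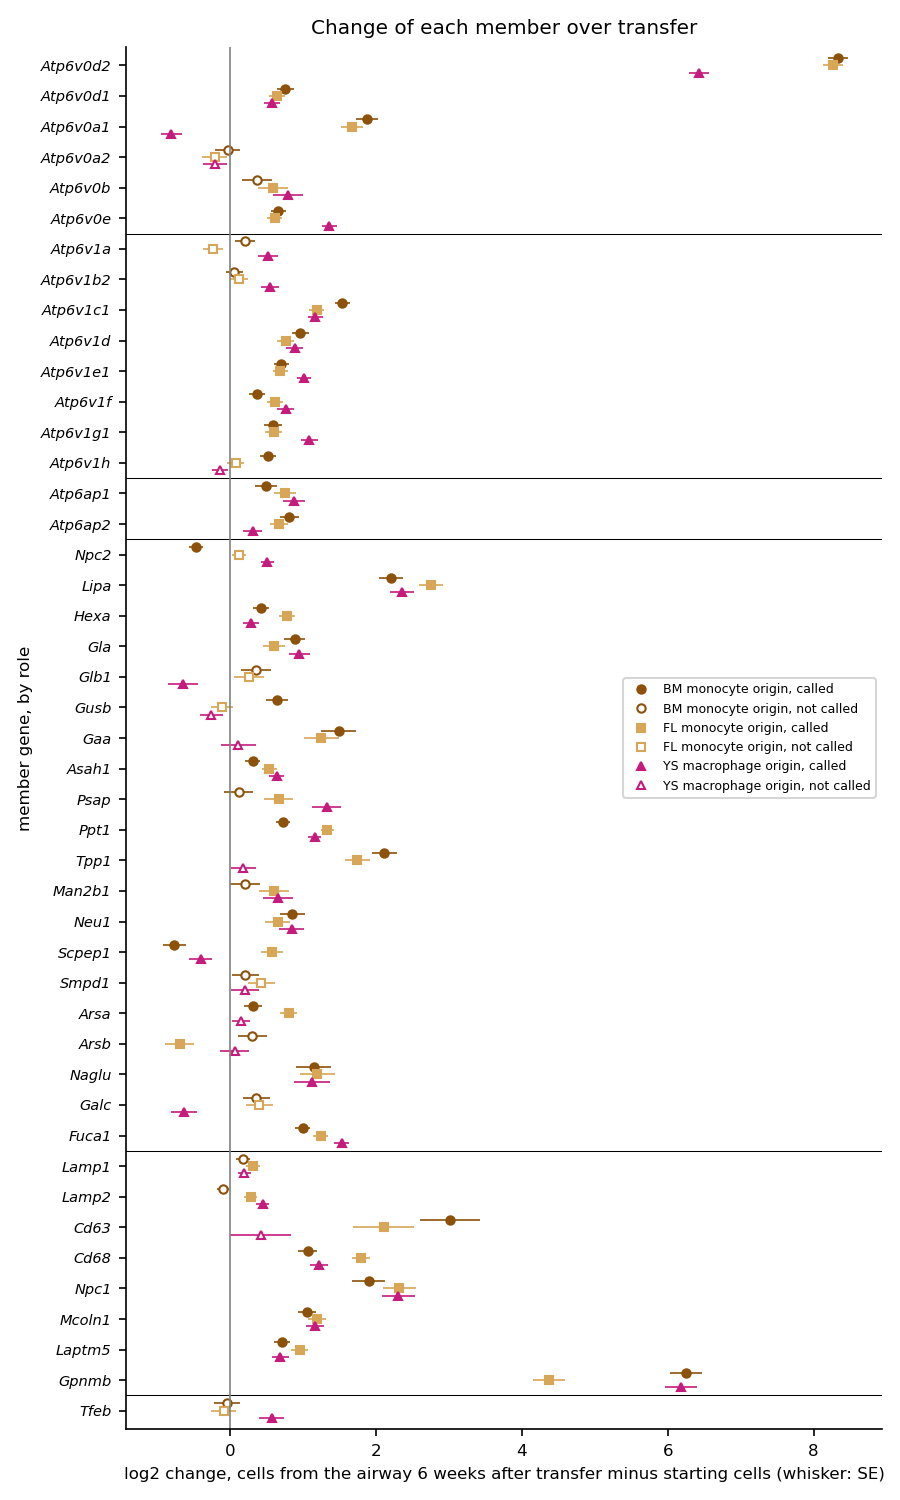
Log2 change of each of the 45 members (rows, by role) over transfer, 6 weeks in the airway minus the starting cells, for BM monocyte, FL monocyte and YS macrophage origin; whiskers are SE and filled symbols passed the test (limma, adjusted p under 0.05). Most symbols lie right of 0 in all 3 origins; the symbols of yolk sac origin lie apart to the left for Atp6v0a1, Tpp1, Gaa, Glb1, Galc and Cd63.

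Tfeb, the transcription factor, passed the test in 1 of the 3 origins. It read 6.64, 6.35, 6.79 and 6.46 in BM monocytes, 6.88, 5.83, 6.20 and 6.85 in FL monocytes and 5.64, 5.72, 5.97 and 5.52 in YS macrophages. After transfer, Tfeb read 6.31, 6.70, 6.47 and 6.59 in BM-derived, 6.71, 6.26, 6.01 and 6.43 in FL-derived, 6.60, 6.20, 6.10 and 6.24 in YS-derived and 6.45, 6.35, 6.10 and 6.40 in AM-derived macrophages. It read 6.18, 6.38, 6.73 and 6.32 in adult AM and 6.53, 6.45, 6.40 and 6.67 in 6-week AM. The yolk sac arrays stood low, and FL monocyte replicate 2 reached down among them. Tfeb rose by 0.57 ± 0.18 SE from YS macrophages (adjusted p = 0.00903), and its changes of -0.04 from BM monocytes (95% interval -0.41 to 0.32) and -0.09 from FL monocytes (-0.45 to 0.27) did not pass. The array measures its RNA, whereas Tfeb is known to be controlled by its location in the cell. The 9 members with CACGTG before the start had median changes of 0.37, 0.60 and 0.52 in BM, FL and YS origin, with 5, 7 and 5 called higher, and the 28 without it had 0.68, 0.67 and 0.62, with 19, 22 and 20 called higher. Of all genes, 20.3%, 20.4% and 19.6% were called higher.

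Related factors and other lysosomal genes came from lists of names, chosen with earlier results of these data known. Of 18 tested genes for factors of the Tfeb family and for nutrient sensing at the lysosome, 7 rose and 2 fell from BM monocytes, 7 rose and 2 fell from FL monocytes, and 6 rose and 5 fell from YS macrophages, against 20.3% higher and 16.1% lower, 20.4% and 18.0%, and 19.6% and 23.2% of all genes. Mitf, a factor of the Tfeb family, rose from 6.10, 5.04 and 6.52 to 7.47, 7.52 and 7.12 (changes 1.37 ± 0.17, 2.48 ± 0.17 and 0.60 ± 0.17 SE). Tfec, another, rose by 1.43 ± 0.13, 0.52 ± 0.13 and 0.66 ± 0.13 SE. Lamtor4, a subunit of the complex that holds mTORC1 at the lysosome, fell from both monocytes (-0.71 and -0.86) and rose from YS macrophages (1.03).

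Of 6 other tested subunits of the proton pump, 1 rose from BM monocytes (Rnasek, by 0.41), 1 from FL monocytes (Rnasek, by 0.75) and 3 from YS macrophages, among them Tcirg1, the a3 isoform known from osteoclasts (by 1.15). The shares of all genes called higher were 20.3%, 20.4% and 19.6%. The changes of Tcirg1 from the monocytes were 0.30 and 0.27 and did not pass. Of 29 other hydrolases and helpers, 21 rose and 4 fell from BM monocytes, 24 rose and 4 fell from FL monocytes, and 18 rose and 5 fell from YS macrophages, against the same shares higher and 16.1%, 18.0% and 23.2% lower. Pld3, a lysosomal nuclease, rose by 4.77, 4.92 and 3.02, and Acp5, the tartrate-resistant acid phosphatase, by 4.43, 3.58 and 4.07. Lgmn, an asparaginyl endopeptidase, rose by 1.63 and 2.17 from the monocytes and fell from YS macrophages, with -1.57. Acp5 and Atp6v0d2 are both known from osteoclasts. The 7 osteoclast markers were Calcr, Acp5, Ocstamp, Dcstamp, Mmp9, Nfatc1 and Oscar. In each alveolar macrophage group 2 or 3 had means above the table median, Acp5 and Nfatc1 among them. In BM monocytes, FL monocytes and YS macrophages 3, 3 and 4 did. List means per array were 4.98 to 5.32 in alveolar macrophages against 4.55 to 4.96 in the starting cells. Group means of Acp5 were 9.87 to 10.35 against 5.90 to 6.69, and those of Nfatc1 at most 7.26 against 6.84 to 6.96. Mmp9 was lower, at 3.53 to 3.84 against 3.84 to 5.72, and the group means of Ocstamp overlapped. Calcr, Dcstamp and Oscar had means under the table median in all 9 groups. Their part in the level of Atp6v0d2 was not tested.

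Of 11 tested cathepsins, 8 rose and 2 fell from BM monocytes, 8 rose and 2 fell from FL monocytes, and 6 rose and 3 fell from YS macrophages, where 20.3%, 20.4% and 19.6% of all genes rose and 16.1%, 18.0% and 23.2% fell. Ctsk rose from means of 3.68, 3.84 and 3.48, under the table median, to 11.07, 11.08 and 10.98, and Ctse fell from 9.81, 8.63 and 5.62 to 5.58, 4.92 and 4.98. Of 26 other membrane proteins, 14 rose and 1 fell from BM monocytes, 16 rose and 1 fell from FL monocytes, and 13 rose and 3 fell from YS macrophages, beside those same shares. The tetraspanin Cd9 rose by 6.15, 5.82 and 6.45, and the ion channel Mcoln3, a paralog of Mcoln1 with means under the table median in all 3 starting populations, rose at least 21.1-fold, at least 27.5-fold and at least 30.1-fold. Sort1, a sorting receptor for lysosomal proteins, rose by 2.01, 1.66 and 3.55.

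Before transfer, some members already differed between the 3 starting populations, as did many other genes. Between FL and BM monocytes 4 of 45 members were higher in FL and 13 lower, against 10.6% and 8.97% of all genes, and 9 of the 13 were hydrolases or helpers. The count of members higher in FL was near the share of all genes. Scpep1 (-1.32 ± 0.16 SE, adjusted p = 1.07e-07), Cd68 (-0.89 ± 0.12 SE, 1.83e-06) and Lipa (-0.68 ± 0.16 SE, 0.00244) were the lower members with the largest changes. Gpnmb was at least 2.46-fold higher in FL monocytes (adjusted p = 1.17e-07), Arsb was higher by 0.56 ± 0.20 SE and Atp6v0a1 by 0.48 ± 0.15 SE. These counts were not stable. Without BM monocyte replicate 2 the 13 became 8, and the 4 became 1 without BM monocyte replicate 1 and 2 without BM monocyte replicate 4 or FL monocyte replicate 1, 2 or 3. The call of Arsb was lost without BM monocyte replicate 1, 3 or 4 or FL monocyte replicate 1, 2 or 3, and that of Atp6v0a1 without BM or FL monocyte replicate 1 or 4.

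YS macrophages were higher than BM monocytes in 11 members and lower in 14, against 24.1% and 18.1% of all genes, and higher than FL monocytes in 15 and lower in 11, against 18.6% and 14.5%. These 2 comparisons share the yolk sac arrays. The count of members higher than in BM monocytes was near the share of all genes. Atp6v0a1 was 6.54-fold higher than in BM and 4.69-fold higher than in FL monocytes (adjusted p = 8.89e-17 and 1.82e-14). Tpp1 was higher by 1.88 ± 0.17 and 1.71 ± 0.17 SE, and Cd63 by 2.59 ± 0.41 and 1.76 ± 0.41 SE, the first being 1.73 without BM monocyte replicate 2. Atp6v0d2 was at least 2.37-fold higher than in FL monocytes. Lower in YS macrophages than in BM monocytes were Psap (-1.38 ± 0.20 SE), Npc2 (-1.06 ± 0.09 SE) and Tfeb (-0.84 ± 0.18 SE), and lower than in FL monocytes were Gpnmb (at least 2.46-fold), Arsb (-0.87 ± 0.20 SE) and Tfeb (-0.72 ± 0.18 SE). In the V1 sector, Atp6v1e1 and Atp6v1g1 were lower in YS macrophages than in BM monocytes (-0.31 and -0.29) and than in FL monocytes (-0.30 and -0.32), and Atp6v1h was higher (0.65 and 0.36). The Atp6v1g1 call against BM monocytes was lost without BM monocyte replicate 1, 3 or 4 or YS macrophage replicate 1, 3 or 4, without the filter and under both other scalings, and that against FL monocytes without FL monocyte replicate 2, 3 or 4 or YS macrophage replicate 1 or 4. The Atp6v1e1 calls, and that of Atp6v1h against FL monocytes, were lost without YS macrophage replicate 1.

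The change over transfer differed between origins in 8 members for fetal liver against bone marrow, against 9.94% of all genes, in 18 for yolk sac against bone marrow (30.6%) and in 17 for yolk sac against fetal liver (22.9%). For fetal liver against bone marrow, Gpnmb rose less (-1.87 ± 0.31 SE, from values under the table median in BM monocytes), Arsb and Gusb differed by -1.0 ± 0.28 and -0.76 ± 0.22 SE, and Ppt1 rose more (0.61 ± 0.13 SE, adjusted p = 0.00173). The call of Gusb was lost without BM-derived replicate 2 or FL-derived replicate 4. For yolk sac against bone marrow, Psap and Npc2 rose more (1.21 ± 0.28 and 0.98 ± 0.13 SE, adjusted p = 0.00115 and 2.29e-07) and Cd63 less (-2.59 ± 0.58 SE, and -1.74 without BM monocyte replicate 2). For yolk sac against fetal liver, Atp6v0d2 rose less (-1.84 ± 0.19 SE, from values under the table median in FL monocytes), Gpnmb and Atp6v1a more (1.81 ± 0.31 and 0.75 ± 0.19 SE), and Cd63 less (-1.68 ± 0.58 SE, adjusted p = 0.0337). The last call was lost without FL monocyte replicate 3 or 4, YS macrophage replicate 1 or 3, FL-derived replicate 4 or YS-derived replicate 2. Arsb differed by 0.76 ± 0.28 SE (adjusted p = 0.0478), a call lost without any 1 of 12 of the 16 arrays.

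Among alveolar macrophages the members spanned narrower ranges than among the starting cells, and all genes likewise differed less. Of all genes, at most 1.02% were called in 1 direction in any comparison among alveolar macrophages, against 8.97% to 24.1% among starting cells of other tissues. The share of all genes with ranges as narrow as those below was not computed. Over the 6 alveolar macrophage groups the range of group means had a median of 0.28 over the 45 members, and 40 of 45 ranges were under 0.5, whereas over the 3 starting populations of other tissues the median range was 0.61 and 16 of 45 were under 0.5. The smallest range among alveolar macrophages was that of Npc2, 0.08, and the widest were those of Smpd1, 0.76, and Gpnmb, 0.72.

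Against 6-week AM, BM-derived macrophages had 1 member higher and 0 lower (limma; 4 and 0 at an unadjusted p under 0.05), against 0.825% and 0.482% of all genes. It was Smpd1, which read 7.47, 7.03, 7.21 and 6.97 in BM-derived macrophages and 6.31, 6.43, 6.20 and 6.68 in 6-week AM, without overlap (0.76 ± 0.19 SE, adjusted p = 0.0281). The other groups read 6.47, 7.06, 6.65 and 6.93 (FL-derived), 6.67, 6.71, 6.90 and 6.56 (YS-derived), 6.81, 6.85, 7.19 and 6.25 (AM-derived) and 6.63, 6.84, 6.91 and 6.75 (adult AM). The call was lost without BM-derived replicate 1 or 3 or 6-week AM replicate 1, 2 or 3.

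FL-derived macrophages had 0 members higher and 0 lower than 6-week AM (limma; 1 and 0 unadjusted), against 0.604% and 0.441% of genes, and YS-derived macrophages 0 and 0 (5 and 0 unadjusted), against 1.02% and 0.702%. AM-derived macrophages had 0 higher and 1 lower (limma; 5 and 2 unadjusted), against 0.760% and 0.310%. The member was Asah1, 9.56, 9.58, 9.45 and 9.11 against 9.88, 9.69, 9.90 and 9.84 in 6-week AM (-0.40 ± 0.10 SE, adjusted p = 0.0357). That call was lost without AM-derived replicate 3 or 4 or 6-week AM replicate 1, 3 or 4. Without the low replicate 4 of AM-derived macrophages and of adult AM, Asah1 changed by -0.29 and did not pass, and Gpnmb was called higher instead, by 0.86.

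Gpnmb stood above 6-week AM in all 4 derived groups, by 0.70 ± 0.22, 0.67 ± 0.22, 0.68 ± 0.22 and 0.72 ± 0.22 SE in BM-, FL-, YS- and AM-derived macrophages. None passed (limma, adjusted p = 0.158, 0.238, 0.152 and 0.146). The 16 derived arrays, at 9.95 to 10.70, lay above the 4 control arrays, at 9.35 to 9.86. Cd63 differed by 0.53 ± 0.41, 0.45 ± 0.41, 0.53 ± 0.41 and 0.63 ± 0.41 SE, and none passed. This SE takes in the spread of the BM monocyte arrays (SD 1.79). The derived arrays of Cd63 also lay above all 6-week AM arrays. These 4 comparisons share the control arrays, and the share of all genes whose arrays separate this way was not computed. In adult AM the values were 9.96, 10.12, 9.70 and 9.12 for Gpnmb and 11.40, 11.75, 11.42 and 11.71 for Cd63. The Gpnmb values of adult AM overlap both the derived and the control arrays, and the Cd63 values overlap the derived arrays and lie above the control arrays.

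Between the derived groups 0 members were called. FL-derived against BM-derived macrophages gave 0 higher and 0 lower (limma; 0 and 3 unadjusted), against 0.172% and 0.245% of genes. YS-derived against BM-derived gave 0 and 0 (1 and 2 unadjusted), against 0.392% and 0.441%, and YS-derived against FL-derived 0 and 0 (1 and 0 unadjusted), against 0.163% and 0.106%. The 95% intervals of the differences, not adjusted for the number of genes, lay within 1 on the log2 scale for 45 of 45 members in each of these 3 comparisons. The largest differences were those of Arsb, -0.44 (-0.85 to -0.04) and -0.56 (-0.96 to -0.16), lower in FL- and YS-derived than in BM-derived macrophages, and that of Atp6v0b, 0.39 (-0.03 to 0.80), between YS- and FL-derived macrophages. Adult AM against 6-week AM gave 0 higher and 0 lower (limma, with 1 and 1 unadjusted), against 0.0163% and 0.00% of genes. Of the 45 intervals, 44 lay within 1, Cd63 being the exception. The Cd63 interval takes in the spread of the BM monocyte arrays (SD 1.79), as its SE is shared by all 9 groups.

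**Figure D5:**
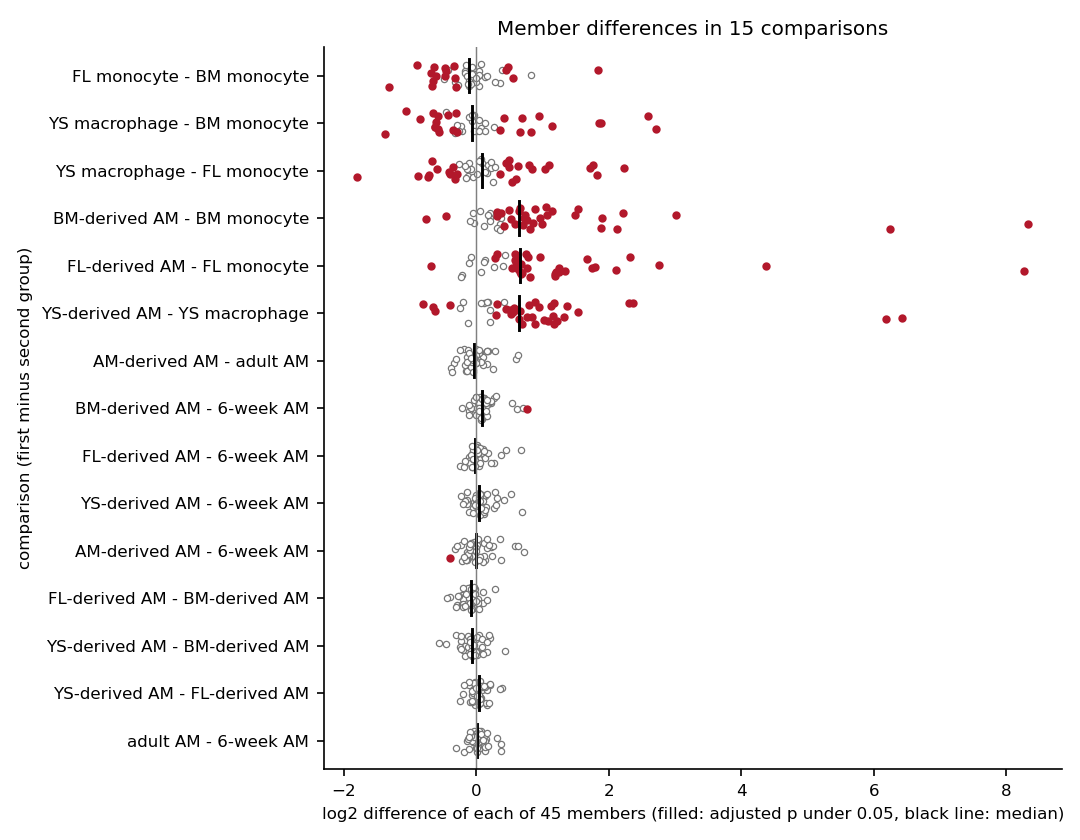
Log2 difference of each of the 45 members (horizontal axis, points) in 15 comparisons (vertical axis, first minus second group); filled points passed the test (limma, adjusted p under 0.05) and the black line is the median. The points spread to 8.33 over transfer of monocytes, with medians of 0.65, 0.66 and 0.64 in the 3 origins, and stay within 0.76 in the 9 comparisons among alveolar macrophages.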

How the data were processed

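RNA of sorted cells was amplified and hybridised to Affymetrix Mouse Gene 1.0 ST arrays. The authors deposited log2 values of 35556 probe sets from RMA, per the submitters' processing notes; its version is not given in the sources used here. RMA equalises arrays, so a shift of all genes cannot be seen. A probe set was used where the platform annotation gave 1 symbol (21789; 1621 had several, 12146 none), and 21698 were matched by Entrez number to RefSeq (GRCm38.p6). The probe set with the highest mean stood for each of 19938 genes, and 12244 genes above the table median (4.62) in at least 4 arrays were tested.

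Version 3.58.1 of limma (R 4.3.3) fitted 1 mean per group to the 36 arrays by lmFit and eBayes, and p-values were adjusted by Benjamini-Hochberg over all genes tested within each of 15 contrasts and 3 differences between contrasts; adjusted p under 0.05 was called. Medians of arrays were 4.54 to 4.73, correlations within groups 0.9796 to 0.9894, and 0 pairs of arrays were identical. Folds against a group with a mean under the table median are bounds against that median, written as at least. Intervals are 95%, unadjusted. The number of arrays limits the precision. The steps were tested on simulated data.

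Per-array values are given for the isoform pairs Atp6v0d1 and Atp6v0d2, Atp6v0a1 and Atp6v0a2, for Tfeb, and for the 4 members of each role with the widest and the 1 with the narrowest range of group means; Asah1, Scpep1, Arsb, Smpd1, Gpnmb and Cd63 also where a call turned on them. Per contrast up to 3 called members with the largest rise and fall are named, and up to 3 genes per other list; further values of members were chosen to cover each role. Members and lists were chosen with earlier results of these data known. The alternatives were the filter, the probe set, the scaling, the prior, the groups in the fit, a replicate block and leaving out arrays.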

Additional observations from a re-analysis of the deposited data

Results flagged for a closer look

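Single arrays stood apart in 13 of the 243 groups of 4 values examined (27 members, 9 groups each), a gap as wide as chance gives in about 1 group in 20. They were spread over 11 arrays. In the proton pump, Atp6v0d1 read 9.40 in replicate 3 of adult AM, against 9.16 to 9.20 in the other 3. The stator arm subunit Atp6v1c1 read 8.64 in replicate 1 of YS macrophages, against 8.79 to 8.80 in the other 3. The membrane subunit Atp6v0e read 11.86 in replicate 2 of adult AM, against 11.94 to 11.96 in the other 3. The catalytic subunit Atp6v1a read 9.28 in replicate 4 of FL monocytes, against 9.43 to 9.46 in the other 3. Among the hydrolases and helpers, Lipa read 11.06 in replicate 3 of 6-week AM, against 11.29 to 11.33 in the other 3. The glucosidase Gaa read 7.46 in replicate 3 of BM-derived macrophages, against 6.87 to 6.94 in the other 3. The lipid carrier Npc2 read 10.81 in replicate 2 of YS macrophages, against 10.92 to 10.93 in the other 3. The galactosidase Glb1 read 6.54 in replicate 4 of adult AM, against 7.17 to 7.28 in the other 3. In a different group, Glb1 read 7.64 in replicate 2 of FL-derived macrophages, against 6.99 to 7.08 in the other 3. The galactosylceramidase Galc read 7.09 in replicate 4 of adult AM, against 6.76 to 6.81 in the other 3. The glucuronidase Gusb read 8.43 in replicate 4 of AM-derived macrophages, against 9.03 to 9.10 in the other 3. Among the membrane proteins, Cd68 read 12.06 in replicate 3 of 6-week AM, against 12.14 to 12.15 in the other 3. The glycoprotein Lamp1 read 11.05 in replicate 2 of BM monocytes, against 10.88 to 10.90 in the other 3. Replicate 4 of adult AM and of AM-derived macrophages, which read low for many members, account for 3 of the 13, and in Galc the adult AM array was high.

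The change over transfer differed between origins for these members (limma interaction, adjusted p under 0.05, log2 differences). For fetal liver minus bone marrow origin the values were -1.87 for Gpnmb, -1.0 for Arsb, -0.76 for Gusb, 1.34 for Scpep1, 0.73 for Cd68 and 0.61 for Ppt1. For yolk sac minus bone marrow origin they were -2.68 for Atp6v0a1, -2.59 for Cd63, -1.93 for Tpp1, 1.21 for Psap, 0.98 for Npc2 and 0.70 for Atp6v0e. For yolk sac minus fetal liver origin they were -2.48 for Atp6v0a1, -1.84 for Atp6v0d2, -1.68 for Cd63, 1.81 for Gpnmb, 0.76 for Arsb and 0.75 for Atp6v1a. The derived groups of these members lay close together, with ranges of alveolar macrophage group means of 0.08 (Npc2) to 0.72 (Gpnmb), and the starting groups of Atp6v0d2 and Gpnmb held arrays under the table median, where differences have no firm size.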

How the results depend on the processing

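The 33 counts of called members gave 558 values under the alternatives, of which 532 stayed within 1.5 times, 21 were lower and 5 higher. The 53 single member changes gave 992 values: 940 kept direction and side of the threshold, 52 kept direction and lost the call, and none turned direction. Among members higher in FL than BM monocytes, 4 became 2 with quantile normalised genes and 2 with only the 2 groups in the fit, and ranged from 1 to 4 when 1 array was left out. The 13 lower became 8 to 11. For BM-derived macrophages against 6-week AM, 1 higher became 2 with the mean of probe sets and 2 with only those groups, and 0 to 1 without 1 array. For YS-derived against 6-week AM, 0 higher became 1 with only those groups. For AM-derived against 6-week AM, 0 higher became 1 with only those groups and 1 without both low arrays, and 1 lower became 0 with centred array medians, 0 with only those groups, 0 without both low arrays and 0 to 1 without 1 array. Leaving out both low arrays was chosen after seeing the data. The causes were not tested.

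The main fit did not pair samples by replicate number. In no comparison did all 4 same-numbered pairs correlate above 0.1, and over all comparisons the correlations ran from -0.23 to 0.42. That rule cannot tell whether same-numbered arrays shared a batch. For AM-derived against adult AM the values were 0.21, 0.19, -0.01 and 0.42 in replicates 1 to 4, and replicate 4 of both groups read low for many members. With the replicate block, 15 of 17 calls between FL and BM monocytes were kept, and 30 members in place of 31 rose from YS macrophages. With 4 arrays a group the unadjusted 95% interval of a difference reached, in the median member, 0.28 to either side on the log2 scale. This is not a limit of detection for calls. Gpnmb stood 0.67 (FL-derived) and 0.72 (AM-derived) above 6-week AM and was not called. Members under the table median (Atp6v0d2 in 8 arrays, Gpnmb in 7, Arsa in 5 and Naglu in 1) have only bounds there.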
